A study of Homo sapiens with 23 samples.

Results

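The 9 genes described here encode surface and serum antigens by which ovarian carcinoma is recognised or targeted: MUC16, MSLN, FOLR1, SLC34A2, WFDC2, EPCAM, MUC1, CLDN6 and L1CAM. They were chosen by name as antibody and serum marker targets, and all 9 were found by NCBI Gene ID among the 21658 genes of the table. Stranded mRNA libraries from 4 established ovarian cancer cell lines, OV-90, Kuramochi, OVSAHO and EFO-21, were sequenced in a parental and a prexasertib-resistant form. Prexasertib inhibits the checkpoint kinase CHK1, and each resistant line was derived in culture by raising the drug concentration over a long period, for a time that varied among models. Whether a resistant line is 1 clone or a mixture, and whether drug was present when RNA was taken, are not given in the sources used here. Each of the 8 groups held 3 libraries labelled as biological replicates, except parental OV-90 with 2, which gave 23 libraries. The 2 questions were how the antigens differed between the parental lines and how they differed between resistant and parental libraries of 1 line.

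The antigens fall into a few families. MUC16 (the CA125 antigen) and MUC1 are membrane mucins whose large glycosylated outer parts can be shed, and MSLN (mesothelin) is a lipid-anchored protein that binds MUC16. FOLR1 is the lipid-anchored folate receptor alpha, SLC34A2 is the sodium-phosphate cotransporter NaPi2b, and WFDC2 is the secreted protease inhibitor HE4. EPCAM is an epithelial adhesion molecule, CLDN6 is a claudin of tight junctions that is mostly embryonic, and L1CAM is an adhesion molecule of neurons that some carcinomas also carry. In the ovary and the oviduct these proteins mark Müllerian-type epithelium to different degrees, and several are targets of antibodies, antibody-drug conjugates or engineered T cells.

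All values are quantile-normalized log2 expression values, so a difference of 1 is 2-fold. "Called" means an adjusted p under 0.05 in limma, with Benjamini-Hochberg adjustment over all genes, and a change of at least 2-fold. "At the bottom" means no higher than the 10th percentile of its library, which lay between 1.70 and 1.87. There a log2 difference is no measured fold. The files hold no counts, so the depth of the libraries is unknown, and values of different genes were not compared because they are not per length.

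Every one of the 23 libraries correlated best, across genes, with a library of its own group. Correlations within a group ran from 0.9524 to 0.9875, the lowest being that of the 2 parental OV-90 libraries, and the highest between different lines was 0.8081. The defining Müllerian markers were present in parental Kuramochi, OVSAHO and EFO-21, with mean PAX8 at 9.37, 9.02 and 8.44 and mean SOX17 at 12.36, 11.92 and 12.47. Parental OV-90 had PAX8 at 2.10, SOX17 at 4.38 and EMX2 at 1.03, below the other parental lines. Its LHX1, FOXJ1 and OVGP1, at 5.84, 4.23 and 4.60, lay within the range of those lines, and MECOM, at 6.68, just below it. The leukocyte marker gene LYZ stood at 12.06 there and the fibroblast marker gene LUM at 12.76. The summed levels of the 8 leukocyte and 7 fibroblast markers, 11.89 to 12.45 and 12.45 to 13.26, were close to those of LYZ and LUM alone. WT1, another ovarian carcinoma marker, was at the bottom in EFO-21. Since these are whole cultures, fewer cells of a kind and less RNA per cell cannot be told apart in any value given here.

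At baseline OV-90 carried a different set of antigens from the other lines. EPCAM and CLDN6 were higher in parental OV-90 than in each other parental line, while MSLN, SLC34A2, WFDC2, L1CAM and MUC16 were lower there than in each of them. Of the 9 genes, 8 were called between Kuramochi and OV-90 (47.0% of all genes were called), 8 between OVSAHO and OV-90 (48.1%) and 8 between EFO-21 and OV-90 (50.2%). Among the other lines, 7 were called between OVSAHO and Kuramochi (37.6%), 6 between EFO-21 and Kuramochi (41.3%) and 6 between EFO-21 and OVSAHO (44.2%). Every one of these 6 counts stayed the same when any 1 parental library was left out.

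In the resistant lines different antigens were called in different lines. EPCAM, MUC16, MUC1 and WFDC2 fell in Kuramochi and OVSAHO, FOLR1 fell in OVSAHO, and L1CAM rose in Kuramochi. MSLN rose in EFO-21, and MUC1 fell in OV-90. In OVSAHO 5 of 9 were called lower, against 3.83% of all genes called lower and 3.93% called higher. In Kuramochi 4 of 9 were called lower (10.6%) and 1 higher (11.8%). OV-90 had 1 of 9 called, in the lower direction (6.56% of all genes lower, 9.5% higher), and EFO-21 had 1, in the higher direction (7.11% higher, 7.15% lower). The median change of the 9 genes was -0.98 in Kuramochi, -1.01 in OVSAHO, 0.03 in OV-90 and 0.32 in EFO-21, beside medians of all genes from -0.06 to 0.01. With 3 against 3, or 2 against 3, libraries an exact two-sided permutation test of a single gene cannot go below 0.1, so the adjusted p-values of limma are given.

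**Figure D1:**
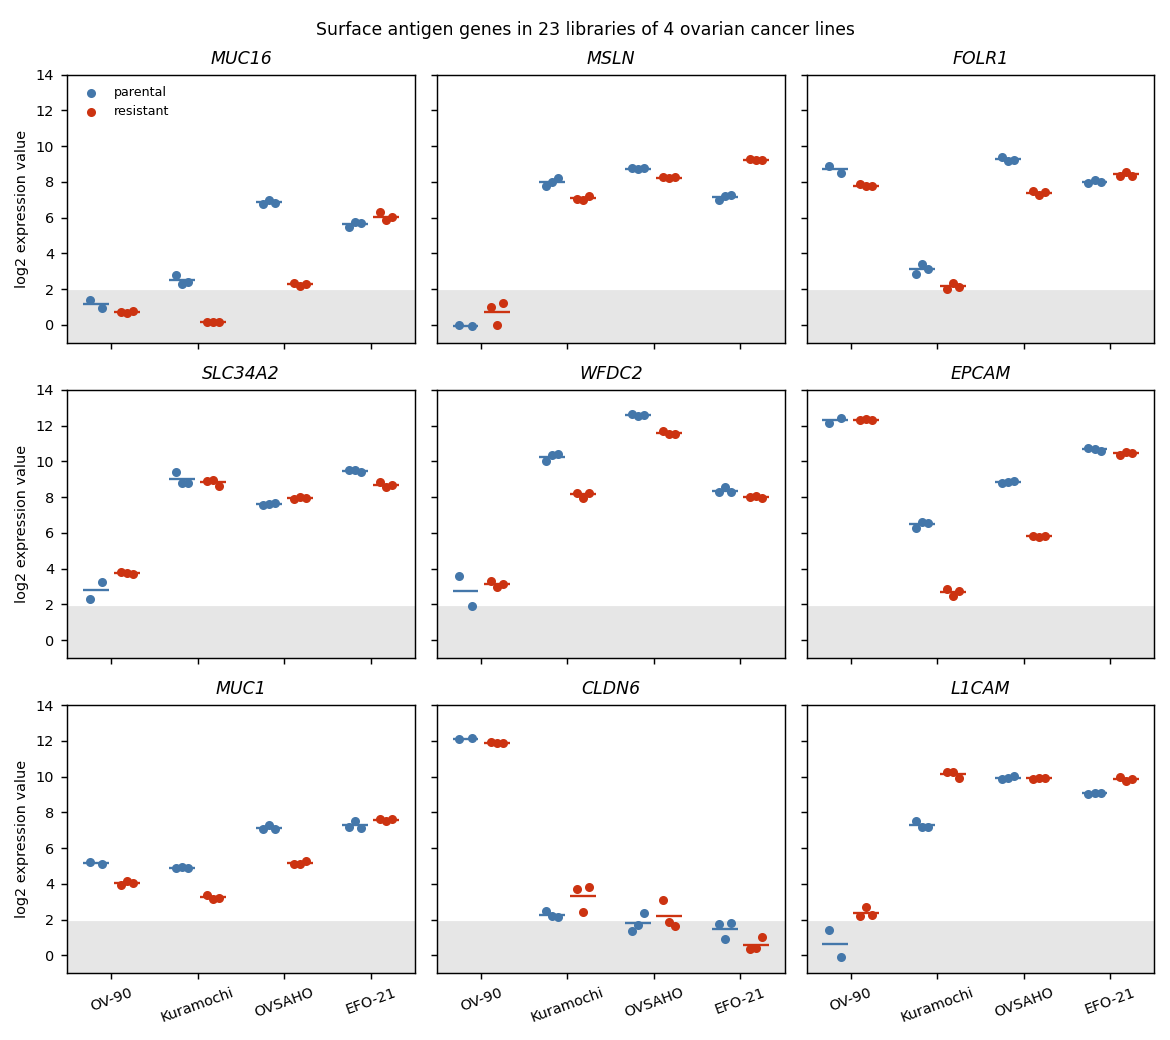
Log2 expression values of the 9 antigen genes in each of the 23 libraries (points, blue for parental and red for resistant libraries), with group means as bars and the lines OV-90, Kuramochi, OVSAHO and EFO-21 along the x axis. The grey band reaches up to 1.87, the highest of the 10th percentiles of the libraries. OV-90 sits apart from the other lines for MSLN, SLC34A2, WFDC2, CLDN6 and L1CAM, and red points lie below blue ones for EPCAM, MUC1 and MUC16 in Kuramochi and OVSAHO.

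MUC16, which encodes the CA125 serum antigen, lies on the minus strand of chromosome 19 (GRCh37 8959520 to 9121066), and its value came from 75 exon features. In parental libraries it stood at 1.37 and 0.93 in OV-90, at 2.77, 2.29 and 2.39 in Kuramochi, at 6.74, 7.0 and 6.83 in OVSAHO and at 5.48, 5.78 and 5.72 in EFO-21. The order of lines was therefore OVSAHO, EFO-21, Kuramochi, OV-90, and all 6 pairs were called, the nearest neighbours EFO-21 and OVSAHO differing by -1.20 (SE 0.20, adjusted p = 0.000355). Resistant OVSAHO libraries fell to 2.35, 2.19 and 2.27, a log2 change of -4.59 (SE 0.13, adjusted p = 3.39e-05), or 24.0-fold. These values lay at percentiles 12.0 to 12.8 of their libraries, just above the bottom, so the fold is uncertain. Resistant Kuramochi libraries lay at 0.14, 0.18 and 0.14, all at the bottom, so the change of -2.33 (SE 0.19, adjusted p = 0.000224) has no measured fold. The parental and resistant libraries did not overlap in either line. EFO-21 went the other way without being called, at 6.31, 5.84 and 6.01 (change 0.39, SE 0.15, adjusted p = 0.076), and OV-90 was at the bottom in all 5 libraries. Among the resistant lines EFO-21 had the highest MUC16.

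MUC1, the other membrane mucin of the group and the source of the CA15-3 antigen, lies on the minus strand of chromosome 1 (GRCh37 155158300 to 155162707). An annotated readthrough gene overlaps it on the same strand, so reads of the pair may be shared. Its parental values were 5.20 and 5.13 in OV-90, 4.90, 4.97 and 4.87 in Kuramochi, 7.05, 7.28 and 7.07 in OVSAHO and 7.18, 7.50 and 7.14 in EFO-21. The lines formed a higher and a lower pair: EFO-21 against OVSAHO differed by 0.14 (SE 0.12, adjusted p = 0.331) and Kuramochi against OV-90 by -0.25 (SE 0.14, adjusted p = 0.126), whereas the other 4 pairs differed by 1.97 to 2.36 in size and were called. MUC1 was called lower in 3 of 4 resistant lines, more than any other antigen. It fell by 1.96 in OVSAHO (to 5.10, 5.13 and 5.28, SE 0.10, adjusted p = 0.000156) and by 1.67 in Kuramochi (to 3.37, 3.13 and 3.22, SE 0.17, adjusted p = 0.000456). In OV-90 it fell by 1.13 (to 3.94, 4.14 and 4.02, SE 0.18, adjusted p = 0.0185), with an adjusted p of 0.0743 to 0.091 when any 1 of the resistant libraries was left out. EFO-21 stood at 7.65, 7.53 and 7.60, a change of 0.32 (SE 0.10, adjusted p = 0.0464) under 2-fold.

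MSLN, the mesothelin gene, lies on the plus strand of chromosome 16 (GRCh37 810734 to 818865). Its protein is the binding partner of MUC16 on mesothelium. OV-90 was at the bottom in all 5 libraries, with parental values of -0.03 and -0.07. Parental Kuramochi gave 7.77, 7.99 and 8.19, OVSAHO 8.76, 8.69 and 8.77 and EFO-21 7.0, 7.20 and 7.24. EFO-21 lay below OVSAHO by 1.59 on the log2 scale (SE 0.12, adjusted p = 1.15e-06), while Kuramochi differed from each of them by less than 2-fold (0.76 from OVSAHO and 0.84 from EFO-21, in size). In resistant EFO-21 MSLN rose to 9.28, 9.22 and 9.23, a change of 2.10 (SE 0.07, adjusted p = 1.79e-05), or 4.28-fold, with no overlap. That change lifted EFO-21 from the third place among parental lines to the first among resistant ones. MSLN was lower in resistant Kuramochi, at 7.02, 7.01 and 7.19, with a change of -0.91 (SE 0.12, adjusted p = 0.00164) that reached -1.02 without parental library 4. OVSAHO changed by -0.50 (SE 0.04, adjusted p = 0.000532), also under 2-fold.

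WFDC2, which encodes the secreted serum marker HE4, lies on the plus strand of chromosome 20 (GRCh37 44098393 to 44110172), among a cluster of related WAP domain genes. Parental values were 3.57 and 1.90 in OV-90, 10, 10.33 and 10.43 in Kuramochi, 12.64, 12.56 and 12.61 in OVSAHO and 8.28, 8.56 and 8.26 in EFO-21. All 6 pairs of lines were called, with OVSAHO above OV-90 by 9.87 (SE 0.37, adjusted p = 7.68e-09) and EFO-21 below Kuramochi by 1.89 (SE 0.33, adjusted p = 0.000542). The order OVSAHO, Kuramochi, EFO-21, OV-90 was the same in parental and resistant libraries. Resistant Kuramochi libraries were lower, at 8.25, 7.94 and 8.25, with a change of -2.10 (SE 0.14, adjusted p = 9.27e-05), or 4.30-fold. Resistant OVSAHO libraries were lower by just over 2-fold, at 11.69, 11.55 and 11.53 (change -1.01, SE 0.05, adjusted p = 0.000168), and the change fell under 2-fold without parental library 7 or resistant library 20 or 21. EFO-21 changed by -0.37 (SE 0.09, adjusted p = 0.0175). The 2 parental OV-90 libraries lay on either side of the resistant ones (3.28, 2.95 and 3.13), so that line gave no direction.

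EPCAM, the epithelial cell adhesion molecule, lies on the plus strand of chromosome 2 (GRCh37 47572297 to 47614740). It spread over the parental lines in 4 separate steps, from 12.14 and 12.45 in OV-90 to 10.72, 10.69 and 10.58 in EFO-21, then 8.76, 8.82 and 8.91 in OVSAHO and 6.27, 6.59 and 6.56 in Kuramochi. Each step was called, the smallest being that between EFO-21 and OV-90 at -1.63 (SE 0.12, adjusted p = 1.06e-06). In the 2 lines with the lower parental values EPCAM fell further with resistance. Kuramochi dropped to 2.85, 2.48 and 2.74 (change -3.78, SE 0.19, adjusted p = 3.34e-05), or 13.8-fold. Those values lay at percentiles 13.7 to 15.9 of their libraries, not far above the bottom, so the fold is uncertain. OVSAHO dropped to 5.83, 5.79 and 5.83 (change -3.01, SE 0.05, adjusted p = 1.23e-05), or 8.06-fold. In the 2 lines with the higher values it barely moved: OV-90 gave 12.32, 12.34 and 12.32 (change 0.03, SE 0.11, adjusted p = 0.84) and EFO-21 10.37, 10.50 and 10.48 (change -0.21, SE 0.05, adjusted p = 0.0181). The span between the highest and lowest line mean widened from 5.83 in parental to 9.63 in resistant libraries.

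FOLR1, folate receptor alpha, lies on the plus strand of chromosome 11 (GRCh37 71900602 to 71907367), with a non-coding gene on the opposite strand. Whether counting used the strand is not given in the sources used here. Parental libraries gave 8.91 and 8.49 in OV-90, 9.37, 9.18 and 9.21 in OVSAHO, 7.96, 8.09 and 7.98 in EFO-21 and 2.86, 3.40 and 3.13 in Kuramochi. Kuramochi was thus the low line, below OVSAHO by 6.12 (SE 0.15, adjusted p = 1.08e-09). OV-90 differed from OVSAHO by 0.55 and from EFO-21 by 0.69 in size, both under 2-fold. OVSAHO was the resistant line in which FOLR1 was called, at 7.49, 7.25 and 7.42, lower by 1.86 (SE 0.08, adjusted p = 0.000106), or 3.64-fold. Changes just under 2-fold were seen in OV-90, at 7.85, 7.77 and 7.74 (-0.91, SE 0.14, adjusted p = 0.0186), and in Kuramochi, at 1.98, 2.34 and 2.14 (-0.98, SE 0.23, adjusted p = 0.0134). The resistant Kuramochi values lay at percentiles 10.9 to 12.7 of their libraries, just above the bottom. Leaving out parental library 3 took the OV-90 change to -1.12, and leaving out parental library 4 or resistant library 17 took the Kuramochi change to -1.11 or -1.07. EFO-21 rose slightly, to 8.35, 8.55 and 8.35 (0.41, SE 0.07, adjusted p = 0.00452), which is under 2-fold.

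SLC34A2, the phosphate cotransporter NaPi2b, lies on the plus strand of chromosome 4 (GRCh37 25649633 to 25680370). It was not called in any resistant line. Parental values were 9.39, 8.79 and 8.80 in Kuramochi, 7.53, 7.61 and 7.69 in OVSAHO, 9.50, 9.51 and 9.40 in EFO-21 and 2.28 and 3.27 in OV-90. The EFO-21 libraries lay just above those of Kuramochi without a call (0.48, SE 0.23, adjusted p = 0.0921, which ranged from 0.0281 to 0.239 as libraries were left out), and OV-90 was below OVSAHO, the next line up, by 4.84 (SE 0.26, adjusted p = 9.35e-08). The resistant EFO-21 libraries were lower, at 8.82, 8.56 and 8.69 (change -0.78, SE 0.07, adjusted p = 0.000443), and those of OVSAHO higher, at 7.92, 8.02 and 7.96 (change 0.35, SE 0.06, adjusted p = 0.00584), neither reaching 2-fold. Kuramochi overlapped its parental libraries, at 8.89, 8.94 and 8.63 (change -0.17, SE 0.18, adjusted p = 0.472). OV-90 stood at 3.82, 3.73 and 3.72 (change 0.98, SE 0.34, adjusted p = 0.0799), a value that ranged from 0.49 to 1.48 as libraries were left out.

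CLDN6, a claudin of embryonic epithelia, lies on the minus strand of chromosome 16 (GRCh37 3064713 to 3070072). Its value rests on 3 exon features, TNFRSF12A overlaps it on the opposite strand, and its close paralog CLDN9 lies 3.7 kb away (reads of these genes may be shared). OV-90 was the one CLDN6-positive line, with 12.11 and 12.13 in parental and 11.94, 11.89 and 11.87 in resistant libraries. Parental values elsewhere were 2.46, 2.20 and 2.14 in Kuramochi, 1.38, 1.68 and 2.36 in OVSAHO and 1.76, 0.89 and 1.80 in EFO-21, the last all at the bottom. These 3 lines were not called against each other, and each was called below OV-90, by 9.86 in Kuramochi (SE 0.35, adjusted p = 5.97e-09). The change in resistant OV-90 was small, -0.22 (SE 0.06, adjusted p = 0.0393). In resistant Kuramochi 2 libraries lay above all parental ones and 1 did not, at 3.72, 2.44 and 3.81 (change 1.06, SE 0.40, adjusted p = 0.0716), and the call was made without resistant library 17. OVSAHO gave 3.10, 1.85 and 1.64 (change 0.39, SE 0.46, adjusted p = 0.563). EFO-21 stayed at the bottom, at 0.38, 0.41 and 1.01, where the change of -0.88 (SE 0.31, adjusted p = 0.0582) is no measured fold and was called without parental library 11 or resistant library 24. CLDN9 itself had means of 7.01, 6.89, 8.45 and 4.66 in parental OV-90, Kuramochi, OVSAHO and EFO-21, and so was present in the lines where CLDN6 was near the bottom.

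L1CAM, the neural cell adhesion molecule that some ovarian carcinomas express, lies on the minus strand of chromosome X (GRCh37 153126969 to 153151627), overlapped by L1CAM-AS1 on the opposite strand. Another annotated protein-coding gene overlaps it on the same strand, so reads of these genes may be shared. OV-90 was at the bottom in both parental libraries, at 1.41 and -0.09. Kuramochi stood at 7.50, 7.16 and 7.16, OVSAHO at 9.84, 9.91 and 10.05 and EFO-21 at 9.05, 9.10 and 9.09. OVSAHO lay above EFO-21 by under 2-fold (0.85, SE 0.30, adjusted p = 0.0261) and above Kuramochi by 2.66 (SE 0.30, adjusted p = 2.51e-05). In resistant Kuramochi L1CAM rose to 10.23, 10.23 and 9.91, a change of 2.85 (SE 0.13, adjusted p = 2.82e-05), or 7.20-fold, and it was the antigen called higher in that line. The gain brought Kuramochi into the range of OVSAHO, which stood at 9.85, 9.93 and 9.93 (change -0.03, SE 0.06, adjusted p = 0.74). EFO-21 rose to 10, 9.78 and 9.84 (change 0.79, SE 0.06, adjusted p = 0.000208), under 2-fold. OV-90 reached 2.19, 2.70 and 2.26 (change 1.72, SE 0.50, adjusted p = 0.052), and its 2 parental libraries decide that value, which was 2.48 without parental library 2 and 0.97 without parental library 3.

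**Figure D2:**
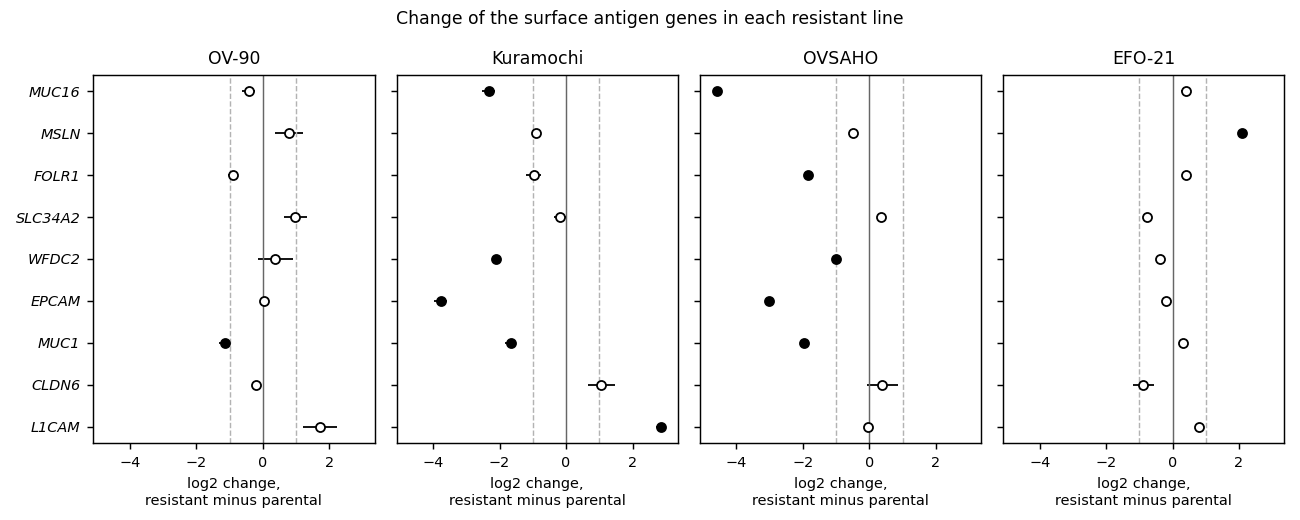
Log2 change (resistant minus parental) of each antigen gene in OV-90, Kuramochi, OVSAHO and EFO-21, with bars of 1 standard error from limma. Filled points were called and dashed lines mark 2-fold. Filled points lie to the left for MUC16, WFDC2, EPCAM and MUC1 in Kuramochi and OVSAHO, for FOLR1 in OVSAHO and for MUC1 in OV-90, and to the right for L1CAM in Kuramochi and MSLN in EFO-21.

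Tests of the difference between the responses of pairs of lines separated EFO-21 from Kuramochi and OVSAHO for most antigens. Between EFO-21 and Kuramochi, 8 of 9 responses differed by the same call rule (26.6% of all genes), and between EFO-21 and OVSAHO 6 of 9 (15.7%). The 8 include CLDN6, at the bottom in every EFO-21 library, and MUC16, at the bottom in resistant Kuramochi. The log2 change of EPCAM was 3.57 higher in EFO-21 than in Kuramochi (SE 0.14, adjusted p = 3.58e-13), and that of MUC16 was 4.98 higher in EFO-21 than in OVSAHO (SE 0.25, adjusted p = 5.86e-11). Kuramochi and OVSAHO differed for 3 of 9 (24.3%), namely MUC16, WFDC2 and L1CAM. The log2 change of L1CAM differed by -2.88 (OVSAHO minus Kuramochi, SE 0.34, adjusted p = 1.33e-06). MUC16 ended at the bottom in resistant Kuramochi from a parental mean of 2.48, so its response there could not reach that of OVSAHO, and the difference of -2.26 has no measured size. Against OV-90, 6 of 9 responses differed in Kuramochi (33.8%), 5 in OVSAHO (17.1%) and 4 in EFO-21 (24.9%). These counts include MUC16, MSLN and L1CAM in Kuramochi and OVSAHO, and MSLN in EFO-21. MUC16 and MSLN were at the bottom in every OV-90 library, and L1CAM in both parental ones. The differences of these genes from OV-90 therefore have no measured size. MUC1, which fell in OV-90, Kuramochi and OVSAHO, differed by less than 2-fold among those 3 lines, by -0.54 between Kuramochi and OV-90 (adjusted p = 0.00802), -0.83 between OVSAHO and OV-90 (adjusted p = 0.000731) and -0.29 between OVSAHO and Kuramochi (adjusted p = 0.131).

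The 4 antigens called lower in Kuramochi were all among the 5 called lower in OVSAHO. For the genes with a promoter in the RefSeq table, the 250 bases before an annotated start were searched for CAGGTG. It is the core of E-box sequences that ZEB and SNAI repressors of epithelial genes bind. Windows were found for 6 of the 9 genes: MUC1, SLC34A2, CLDN6, MUC16, WFDC2 and L1CAM. EPCAM, FOLR1 and MSLN were not matched. MUC1 (GRCh38.p14, chr1:155192916-155193165, minus strand) and WFDC2 (chr20:45469503-45469752, plus strand) are shown as genes that fell together. MUC16, which fell with them, is not shown. CLDN6 (chr16:3018184-3018433, minus strand) is shown as one called in no resistant line. Its parental means of 2.27, 1.81 and 1.48 in Kuramochi, OVSAHO and EFO-21 left little room to fall, so it is no contrast there. Each runs 5′ to 3′ along the gene, and capitals mark CAGGTG or its reverse complement CACCTG, the only motif marked.
MUC1: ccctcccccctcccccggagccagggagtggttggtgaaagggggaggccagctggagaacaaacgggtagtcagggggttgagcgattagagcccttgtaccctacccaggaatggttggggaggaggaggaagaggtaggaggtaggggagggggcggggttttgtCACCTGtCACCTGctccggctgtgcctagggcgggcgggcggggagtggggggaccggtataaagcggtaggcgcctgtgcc
WFDC2: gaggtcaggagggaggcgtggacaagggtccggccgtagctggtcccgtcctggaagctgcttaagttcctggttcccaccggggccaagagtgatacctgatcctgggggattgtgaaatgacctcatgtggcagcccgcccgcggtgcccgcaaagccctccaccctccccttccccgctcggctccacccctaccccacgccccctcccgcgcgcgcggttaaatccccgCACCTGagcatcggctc
CLDN6: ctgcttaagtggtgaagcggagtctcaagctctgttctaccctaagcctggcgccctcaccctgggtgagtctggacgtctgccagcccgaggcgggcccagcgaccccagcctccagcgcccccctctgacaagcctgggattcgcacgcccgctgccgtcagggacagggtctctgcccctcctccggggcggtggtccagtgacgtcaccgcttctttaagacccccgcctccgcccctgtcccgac
The MUC1 window holds the motif 2 times, starting 82 and 75 bases before the start site, and the WFDC2 window holds it 1 time, 17 bases before. CLDN6 and SLC34A2 had 0, and MUC16 had 0 in the window of its gene start and 1 in a second listed window. L1CAM had 0 in its 2 listed windows, but neither is the window of its gene start. SLC34A2 was called in no resistant line and had means of 8.99, 7.61 and 9.47 in parental Kuramochi, OVSAHO and EFO-21. Of 35116 RefSeq windows of the same length, 17.5% hold the motif on either strand. The GC-box core GGGCGG (or CCGCCC) occurs 4 times in the MUC1 window, 2 times in CLDN6 and 1 time in WFDC2, and in 42.6% of all windows. These are matches of letters, not measured binding sites. A part of ZEB or SNAI factors in the antigen changes was not tested. ZEB1 rose by 1.02 in OVSAHO (adjusted p = 0.0038) and 1.60 in OV-90 (adjusted p = 0.0176). It stood at 0.56 in Kuramochi (adjusted p = 0.143) and 0.43 in EFO-21 (adjusted p = 0.0531). ZEB2 changed by 1.48 in Kuramochi (adjusted p = 0.000585), by -1.04 in OV-90 (adjusted p = 0.0524), by -0.44 in OVSAHO and by -0.06 in EFO-21. ZEB2 was at the bottom in resistant OV-90 and in both states of OVSAHO and EFO-21, so its changes there are no measured folds. SNAI2 was called in none of the 4 lines, with changes from 0.0 in EFO-21, where it was at the bottom in both states, to 0.69 in Kuramochi (adjusted p = 0.998 and 0.00152).

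Epithelial and mesenchymal marker genes were called in all 4 lines, also in OV-90 and EFO-21, where 1 antigen each was called. Of 13 epithelial markers, 9 were called lower in Kuramochi, 5 in OVSAHO, 4 in OV-90 and 2 in EFO-21, and CDH1 was called higher in EFO-21. The median changes were -2.09, -0.84, -0.69 and -0.52. CDH1, the adherens junction cadherin, changed by -3.00 in Kuramochi (SE 0.21, adjusted p = 0.000117), by -1.67 in OVSAHO (SE 0.07, adjusted p = 8.97e-05) and by 1.39 in EFO-21 (SE 0.12, adjusted p = 0.000358). KRT19, a simple epithelial keratin, fell in Kuramochi by 3.96 (SE 0.16, adjusted p = 1.64e-05). The summed level of the 13 genes ranged from 12.8 to 13.1 in parental and 11.84 to 11.92 in resistant Kuramochi, and from 12.26 to 12.32 and 11.15 to 11.25 in OVSAHO. CDH1, GRHL2, OVOL2 and MARVELD3 were at the bottom in resistant Kuramochi. OV-90, where EPCAM changed by 0.03, had a sum between 13.99 and 14.33 in parental and between 13.49 and 13.58 in resistant libraries. EFO-21 had a sum between 13.1 and 13.2 in parental and between 12.48 and 12.53 in resistant libraries.

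Of 8 mesenchymal markers, 4 were called higher in Kuramochi, 3 in OVSAHO, 2 in OV-90 and 2 in EFO-21, with 1 lower in OV-90. FN1, which encodes fibronectin, rose in all 4 lines, by 2.78 in Kuramochi (SE 0.28, adjusted p = 0.000499), 1.53 in OVSAHO (adjusted p = 0.00239), 1.78 in OV-90 (adjusted p = 0.0449) and 1.07 in EFO-21 (adjusted p = 0.000424). VIM, which encodes vimentin, rose by 1.88 in Kuramochi (SE 0.06, adjusted p = 1.09e-05) and stood at -0.11 in OVSAHO (adjusted p = 0.209). Among 9 Müllerian markers 6 were called lower in Kuramochi, EMX2 going from a mean of 9.37 to the bottom and WT1 by -2.25 (SE 0.09, adjusted p = 1.60e-05), and 1 in OVSAHO. Mesothelial cells also make MSLN and MUC16. Of the 5 mesothelial markers measured, 3 were called lower and 1 higher in EFO-21, where MSLN rose, and the summed level there was 9.3 to 9.34 in parental and 9.35 to 9.43 in resistant libraries. Of 8 leukocyte markers, 5 were called lower in OVSAHO, where the summed level was 8.07 to 8.69 in parental and 6.84 to 6.97 in resistant libraries and PTPRC, CD3E and CD3D ended at the bottom, and 1 was called higher and 1 lower in Kuramochi. Of 7 fibroblast markers, 2 were called higher and 3 lower in both Kuramochi and OVSAHO, with COL1A1 and COL3A1 lower and LUM higher in both. LUM, which encodes the matrix proteoglycan lumican, changed by 2.04 in Kuramochi (adjusted p = 0.0105) and 4.73 in OVSAHO (adjusted p = 0.000954), and DCN, the decorin gene, by -2.52 (to the bottom, adjusted p = 0.00256) and 4.22 (adjusted p = 6.17e-05). The summed fibroblast level was 10.59 to 10.95 in parental and 8.95 to 9.1 in resistant Kuramochi, and 6.25 to 6.35 and 7.51 to 7.79 in OVSAHO. The part of these marker changes in the antigen changes was not tested.

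**Figure D3:**
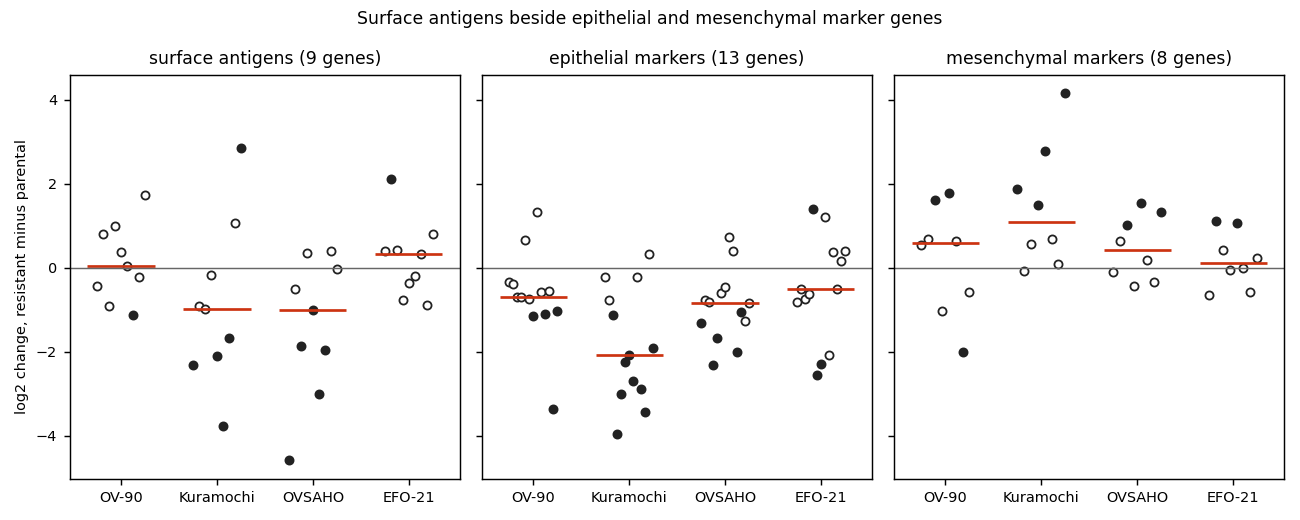
Log2 change (resistant minus parental) of the 9 antigen genes, 13 epithelial and 8 mesenchymal marker genes in each of the 4 lines, with 1 point per gene, filled where called, and the median of each list as a bar. The antigen medians of -0.98 in Kuramochi and -1.01 in OVSAHO lie beside epithelial medians of -2.09 and -0.84.

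Counts over other gene lists can be read against the shares of all genes called in each line, given above. Some partners of EPCAM fell in Kuramochi and OVSAHO, where it fell, and some in EFO-21, where it changed by -0.21. Of 12 relatives and membrane partners, 5 were called lower and 3 higher in Kuramochi, and 4 lower and 1 higher in OVSAHO (list medians -0.89 and -0.23). EFO-21 had 5 lower and 1 higher, and OV-90 had 1 lower and 1 higher (medians -0.69 and 0.05). CDH1, CLDN7, SPINT1 and ST14 were lower and TSPAN8 higher in both Kuramochi and OVSAHO. CLDN7, ST14 and SPINT2 were among the 5 lower in EFO-21, at -1.48, -1.46 and -1.53. CLDN7, the claudin that binds EPCAM, changed by -4.00 in Kuramochi (SE 0.17, adjusted p = 2.08e-05) and -2.56 in OVSAHO (SE 0.30, adjusted p = 0.00228). ST14, the matriptase gene, changed by -4.97 (SE 0.21, adjusted p = 1.97e-05) and -3.56 (SE 0.33, adjusted p = 0.00107), its resistant means of 0.77 and 0.52 lying at the bottom, and SPINT2, which encodes a matriptase inhibitor, by -3.90 and -0.68. CD44, a hyaluronan receptor, rose by 4.10 in Kuramochi (SE 0.14, adjusted p = 1.09e-05). Of 7 claudins near CLDN6 or of epithelia, 4 were called lower in Kuramochi and 2 in OVSAHO (medians -1.32 and -0.70), 3 lower and 1 higher in EFO-21 and 2 higher in OV-90 (medians -0.69 and 0.12). CLDN10 and CLDN1 changed by -2.28 (SE 0.17, adjusted p = 0.000229) and -2.10 (SE 0.07, adjusted p = 1.79e-05) in EFO-21. CLDN4, a tight junction claudin, changed by -4.61 in Kuramochi (SE 0.10, adjusted p = 4.78e-06) and -2.86 in OVSAHO (SE 0.06, adjusted p = 2.01e-05).

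Among 10 measured WAP domain genes, the family of WFDC2, SLPI changed in Kuramochi by -3.34 (SE 0.13, adjusted p = 1.46e-05), in OVSAHO by -2.09 (SE 0.04, adjusted p = 1.60e-05) and in OV-90 by -1.22 (SE 0.18, adjusted p = 0.0174). SLPI encodes a secreted inhibitor of neutrophil elastase. PI3, the gene of a related elastase inhibitor, fell by 2.16 in OVSAHO (SE 0.08, adjusted p = 6.45e-05) and by 1.94 in OV-90 (SE 0.17, adjusted p = 0.00738), but stood at -0.09 in Kuramochi. In all, 2 of the family were called higher and 2 lower in Kuramochi, 4 lower in OVSAHO, 3 lower in OV-90 and 2 higher in EFO-21. Of 11 other mucins measured, 2 were called lower in Kuramochi, 2 lower in OVSAHO and 1 higher in OV-90, and none was called lower in both Kuramochi and OVSAHO. In EFO-21 4 were higher, MUC6 by 1.37 (SE 0.22, adjusted p = 0.00391) and MUC5B by 1.94 (SE 0.19, adjusted p = 0.000517), both genes of secreted gel mucins, and 2 were lower.

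Of 18 folate receptors, carriers and enzymes, 1 was called in OVSAHO, and it was FOLR3, the secreted folate receptor and direct neighbour of FOLR1 on chromosome 11, at -2.14 (SE 0.25, adjusted p = 0.00218). In Kuramochi 3 were higher, GGH, the lysosomal enzyme that trims folate polyglutamates, by 2.19 (SE 0.15, adjusted p = 9.34e-05), and 1 lower, while EFO-21 had 1 higher and 4 lower and OV-90 1 lower. FOLR3 was among the 4 lower in EFO-21 (-1.90, SE 0.61, adjusted p = 0.0428), where FOLR1 changed by 0.41. Of 6 phosphate transporters 3 were called higher in OV-90 and 1 in EFO-21, and 1 lower in Kuramochi. XPR1, the phosphate exporter, changed by 1.37 in OV-90 (SE 0.37, adjusted p = 0.0446). Of 15 L1 family members and L1CAM ligands, 3 were called higher and 1 lower in Kuramochi, and 5 higher and 1 lower in OVSAHO. OV-90 had 3 higher, and EFO-21 had 1 higher and 3 lower. NFASC, an L1 family adhesion gene, rose by 2.27 (SE 0.12, adjusted p = 4.41e-05) in Kuramochi beside L1CAM. Of the integrin partners, ITGB3 rose there by 1.65 (SE 0.17, adjusted p = 0.000527), and ITGAV rose by 1.04 in OVSAHO (SE 0.12, adjusted p = 0.00186). ITGAV stood at -0.49 in Kuramochi (adjusted p = 0.422) and was called higher in OV-90 (2.23, SE 0.41, adjusted p = 0.0235). Of 8 mesothelin relatives and mucin ligands, 3 were called higher and 1 lower in Kuramochi, where LGALS3, the galectin that binds MUC1 and MUC16 glycans, changed by 2.24 (SE 0.16, adjusted p = 0.000123). In EFO-21, where MSLN rose, 1 was higher and 3 were lower. OVSAHO had 2 lower and OV-90 had 1 lower.

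Proteases that can release antigens from the surface differed by line. Of 16, 4 were called higher in Kuramochi, 5 higher and 3 lower in OV-90 and 2 lower in EFO-21, and the median of the list in OVSAHO was 0.03. In Kuramochi ADAM12 rose by 5.78 (SE 0.20, adjusted p = 1.16e-05) and BACE2 by 4.48 (SE 0.19, adjusted p = 2.05e-05). ADAM10 and ADAM17, the main sheddases of many surface proteins, changed by -0.06 and 0.06 in Kuramochi and by 0.47 and 0.63 in OVSAHO, under 2-fold, and ADAM10 was called higher in OV-90 (1.20, SE 0.27, adjusted p = 0.0322).

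Other antibody targets and serum markers moved in both directions. Of 36 further antibody targets, Kuramochi had 6 called higher and 10 lower, OVSAHO had 7 and 2, OV-90 had 5 and 1, and EFO-21 had 5 and 7, with medians of -0.51, 0.14, 0.04 and -0.05. AXL, GPNMB, MELTF and MET were called higher in both Kuramochi and OVSAHO, and LYPD1 was lower in both. MET, the receptor of hepatocyte growth factor, rose by 1.54 in Kuramochi (SE 0.20, adjusted p = 0.0012), 1.27 in OVSAHO (SE 0.12, adjusted p = 0.001) and 1.25 in OV-90 (SE 0.27, adjusted p = 0.0309). LYPD1 fell by 4.35 in Kuramochi (SE 0.09, adjusted p = 3.44e-06) and 3.99 in OVSAHO (SE 0.18, adjusted p = 0.000109). CD70, an immune ligand, rose by 4.34 in Kuramochi (SE 0.21, adjusted p = 2.82e-05). Of 29 further serum markers, 10 were called lower and 6 higher in Kuramochi, 8 lower and 4 higher in OVSAHO, 3 lower and 2 higher in OV-90 and 9 lower and 1 higher in EFO-21, with medians of -0.35, 0.02, 0.22 and -0.18. APOA1, CHI3L1, KLK5, KLK6, KLK7, KLK8 and TTR were lower in both Kuramochi and OVSAHO, which include 4 kallikrein genes. KLK6, KLK7 and KLK8 were also called lower in EFO-21 (-4.35, -1.28 and -1.23, KLK6 and KLK7 ending at the bottom), where neither WFDC2 nor MUC16 was called. KLK7 changed by -2.35 in OVSAHO (SE 0.08, adjusted p = 4.09e-05), and in Kuramochi it went from a mean of 6.47 to 0.92, at the bottom (adjusted p = 1.13e-05).

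The genes around MSLN moved with it in EFO-21. Of its 20 nearest measured genes, 10 on each side and from -88 to 459 kb, 11 were called higher and 1 lower in resistant EFO-21, with a median change of 1.14, whereas the median of all genes was 0.01. The direct neighbours were CIAO3, at 0.60 (adjusted p = 0.000658), and MIR662, at 2.58 (adjusted p = 0.00151). SOX8 had the highest value of the 20, 3.04 at 219.6 kb (adjusted p = 0.000505), and was singled out after its value was seen. In the other lines 0 of 20 were higher and 3 lower in OV-90, 3 and 2 in Kuramochi and 1 and 0 in OVSAHO, with medians of -0.50, -0.27 and -0.15. CLDN6, on the same arm of chromosome 16, had 3 neighbours called higher and 1 lower in EFO-21, and the WAP domain gene WFIKKN1 of that chromosome rose by 2.46 (SE 0.31, adjusted p = 0.00141).

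**Figure D4:**
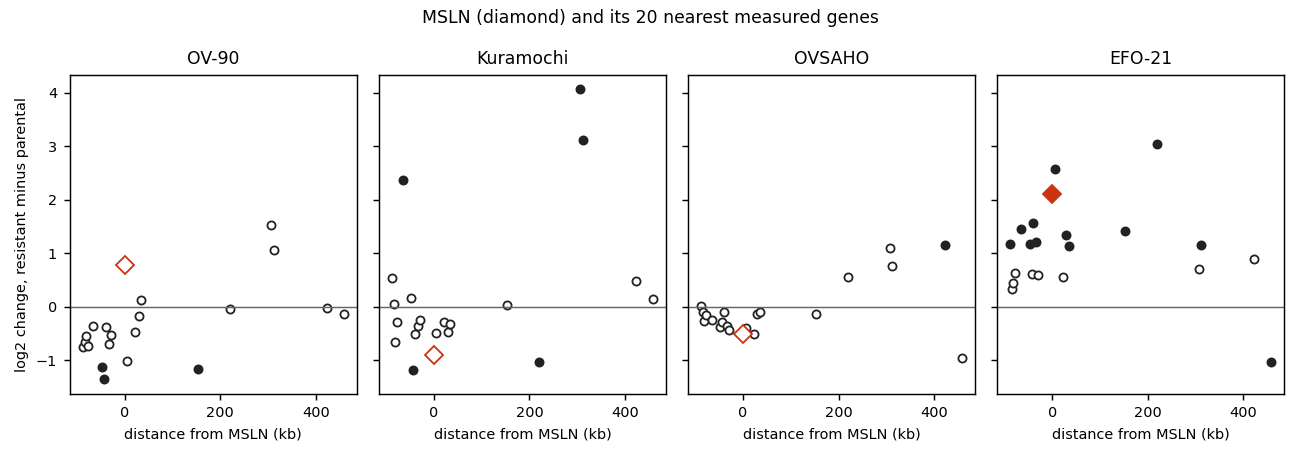
Log2 change (resistant minus parental) of MSLN (diamond) and its 20 nearest measured genes (circles) against their distance from MSLN in kb, 1 panel per line, filled where called. In EFO-21 11 of the 20 genes are filled above 0 and 1 below, and MSLN stands at 2.10 among them, while in OV-90 MSLN was at the bottom in all 5 libraries.

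Around L1CAM 7 of 20 genes were called higher and 0 lower in resistant Kuramochi, with a median of 0.80. L1CAM-AS1 changed there by 3.10 (adjusted p = 0.000836), and reads of the pair cannot be told apart if counting ignored the strand. PDZD4, on the other side, was called higher in Kuramochi (1.33, adjusted p = 0.000534) and in OVSAHO (1.65, adjusted p = 0.000161), where L1CAM changed by -0.03. TRIM46, next to MUC1, fell by 1.83 in Kuramochi (adjusted p = 0.000188), and the fall of 1.02 in OVSAHO was also called (adjusted p = 0.00933). CLDN9 also fell in both (-1.32, adjusted p = 0.0402 and -2.37, adjusted p = 0.00104), while CLDN6 itself was near the bottom. Around EPCAM 0 of 20 were higher and 3 lower in Kuramochi, and 3 higher and 0 lower in OVSAHO. Around MUC16 6 of 20 were called higher in Kuramochi, where it fell, and 1 higher and 1 lower in OVSAHO.

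Likeness of pattern was measured as Pearson's r over the 8 group means, among 13361 genes whose means spanned at least 2 on the log2 scale. These are descriptions over 8 points, of which each line gave 2. Within the 9 genes, MUC16 and MUC1 had r = 0.96, MSLN and L1CAM 0.96, and MSLN and CLDN6 -0.99. The last 2 values rest largely on OV-90, where MSLN was at the bottom and both groups lay apart from the other lines. Parental and resistant OV-90 had means of 0.66 and 2.38 for L1CAM and of 12.12 and 11.90 for CLDN6. In resistant Kuramochi, by contrast, MSLN changed by -0.91 and L1CAM by 2.85. The gene most like both MUC16 and MUC1 was AZGP1, which encodes a secreted zinc-binding glycoprotein, with r = 0.973 and 0.981. EPCAM was most like TNNI3 and NOS3 (both 0.986), WFDC2 most like KLHL14 (0.994) and FOLR1 most like RPS6KL1, ENTPD6 and OPLAH (each 0.982). SLC34A2 was nearest to SLC25A24 (0.987), L1CAM to CLEC11A (0.994), and CLDN6 to SCRG1 (0.999). For MSLN the list held ID4 (0.993), and WDR90 (0.99), which lies at -111 kb from it on chromosome 16.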

How the data were processed

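Total RNA of parental and prexasertib-resistant OV-90, Kuramochi, OVSAHO and EFO-21 cultures was made by the authors into TruSeq stranded mRNA libraries. Reads were aligned to GRCh37/hg19, exons poorly covered in most samples were left out, and exon and junction reads were reduced to 1 value per gene. A robust linear model was used for 16448 of 21658 genes, all 9 described here among them, and a mean over exons for the other 5210. The deposited log2 values were quantile normalized by the authors, which removes any shift common to most genes. The annotation release and the use of strand in counting are not given in the sources used here. The table holds no counts, so depth is unknown and the spread among libraries is the measure of precision. Columns name line and resistance and carry a library number from 2 to 24, used here as a name, but no replicate number. Nothing says that replicates came from separate derivations of resistance, so p-values measure the spread between cultures.

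Symbols were matched by NCBI Gene ID to a RefSeq table (GRCh38.p14) for 20745 genes (95.8%), positions came from GENCODE release 44 lifted to GRCh37, and promoter sequences from RefSeq (GRCh38.p14). limma 3.58.1 (R 4.3.3, lmFit, then eBayes with trend, two-sided, Benjamini-Hochberg over all 21658 genes, no filter) was fitted to each line for resistance, to the 11 parental libraries for 6 baseline pairs, and to all 23 libraries with 8 group means for 6 differences of response. A gene was called at an adjusted p under 0.05 and at least 2-fold. The code was tested on simulated data. The members and gene lists were chosen with earlier results of these data known. Of each list, at most 3 called genes per line whose groups did not overlap and whose higher mean exceeded the median of all gene means (5.81), genes called in both Kuramochi and OVSAHO, the direct neighbours of a member and the 3 genes most like it in pattern could be named. ADAM17, ZEB2, SNAI2, SOX8, the marker genes of the identity check and values of named genes in further lines were added for their role or after values were seen. Alternatives were a joint fit, no trend, a filter at the 25th percentile, recentring, thresholds of 1.5-fold and no fold, and each library left out in turn. Values of some listed genes are not reported here.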

Additional observations from a re-analysis of the deposited data

Results flagged for a closer look

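Tests of the difference between the responses (resistant minus parental) of pairs of lines, fitted by limma over all 23 libraries, drew attention to 32 values on the log2 scale, and no explanation was weighed. The comparisons share libraries, so they are not independent of each other.

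The response of EFO-21 exceeded that of Kuramochi by 2.72 for MUC16, 3.01 for MSLN, 1.39 for FOLR1, 1.74 for WFDC2, 3.57 for EPCAM and 1.99 for MUC1. For CLDN6 and L1CAM the difference was -1.94 and -2.05, CLDN6 being at the bottom of the scale in EFO-21. EFO-21 exceeded OVSAHO by 4.98 for MUC16, 2.59 for MSLN, 2.27 for FOLR1, 2.80 for EPCAM and 2.28 for MUC1, and SLC34A2 differed by -1.14. EFO-21 exceeded OV-90 by 1.31 for MSLN, 1.32 for FOLR1 and 1.45 for MUC1, and SLC34A2 differed by -1.76. MSLN was at the bottom in OV-90, and its difference was 0.93 without resistant library 14.

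Kuramochi minus OV-90 gave -3.81 for EPCAM, -2.49 for WFDC2, -1.89 for MUC16, -1.69 for MSLN, -1.15 for SLC34A2 and 1.12 for L1CAM. Without parental library 3 the WFDC2 value was -1.65 and the L1CAM value 1.88. Without parental library 2 the SLC34A2 value was -0.66 and the L1CAM value 0.37, neither called, and without parental library 4 SLC34A2 was at -0.96. OVSAHO minus OV-90 gave -4.15 for MUC16, -3.04 for EPCAM, -1.76 for L1CAM, -1.40 for WFDC2 and -1.28 for MSLN. Without parental library 3 the WFDC2 value was -0.56 and the L1CAM value -1.0, and without parental library 2 the WFDC2 value was -2.24. Values for MUC16 and MSLN against OV-90 rest on a line in which both genes were at the bottom, and those for L1CAM on parental OV-90 libraries at the bottom. MUC16 was also at the bottom in resistant Kuramochi, so its differences from that line have no measured size. OVSAHO minus Kuramochi gave -2.88 for L1CAM, -2.26 for MUC16 and 1.09 for WFDC2, the last at 0.99 without resistant library 17.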

How the results depend on the processing

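The antigens called in OV-90 numbered 2 at 1.5-fold, 3 with no fold threshold and 2 in the joint fit of 23 libraries, and 0 to 3 as libraries were left out, against 1 as reported. The calls over all genes there ranged from 309 to 5975 without 1 library, against 3478. In EFO-21, 3 antigens were called at 1.5-fold and 7 with no fold threshold, and 1 to 2 as libraries were left out. Between the responses of OVSAHO and Kuramochi 5 differed at 1.5-fold and 5 with no fold threshold, against 3. With no fold threshold, the calls over all genes rose to 10158 in Kuramochi, 7203 in OVSAHO and 10478 in EFO-21, and with the filter on low values they fell to 3095, 871 and 1762. Leaving out 1 library turned the sign of small changes: EPCAM in OV-90 ranged from -0.13 (without parental library 2) to 0.19, WFDC2 in OV-90 from -0.45 (without parental library 3) to 1.22, SLC34A2 in Kuramochi from -0.27 to 0.03 (without parental library 4), L1CAM in OVSAHO from -0.07 to 0.03 (without parental library 9) and CLDN6 in OVSAHO from -0.06 (without resistant library 19) to 0.67. The difference of response between Kuramochi and OV-90 for FOLR1 ranged from -0.28 to 0.15, above 0 without parental library 3 or 5 or resistant library 16 (0.07 and 0.02 for the last 2), and that between EFO-21 and OV-90 for WFDC2 from -1.59 to 0.08 (without parental library 3). The causes were not tested. None of these values that turned sign had been called. Of the values for single antigens under the alternatives, 604 of the baseline, 373 of the response and 850 of the difference kept direction and call. At baseline 11 others gained a call. Of the response values 29 gained a call, 6 lost it and 5 turned sign. Of the difference values 25 gained a call, 6 lost it and 4 turned sign. Without a trend every value kept direction and call. With recentred libraries every one did too, but each library already had a median of 6.01, so recentring could hardly change a value and is no test. The joint fit added calls for L1CAM in OV-90 (1.72) and CLDN6 in Kuramochi (1.06). No paired analysis was possible because the columns carry no replicate numbers. Without counts, no detection limit can be given.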
